A study of Mus musculus with 4 samples.

Results

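The 40 genes described here are homeobox factors that take part in setting or keeping the identity of retinal cells. They were chosen by a list of gene symbols, and all 40 were found by symbol among the 31053 genes of the deposited matrices. By family, 7 are LIM factors (Lhx1, Lhx2, Lhx3, Lhx4, Lhx9, Isl1, Isl2), 9 are TALE factors (Meis1, Meis2, Pbx3, Irx1, Irx2, Irx3, Irx4, Irx5, Irx6), 6 are CUT factors (Onecut1, Onecut2, Onecut3, Satb1, Cux1, Cux2) and 4 are POU factors (Pou3f1, Pou4f1, Pou4f2, Pou4f3). A further 5 are factors of the early eye field and optic stalk (Pax6, Pax2, Six3, Six6, Rax), 5 join zinc fingers to homeodomains (Zfhx3, Zfhx4, Tshz1, Tshz2, Tshz3), and 2 are Paired-like factors (Vsx1, Sebox). The last are Prox1, the Prospero factor, and Barhl2, a BarH factor. The study profiled nuclei of the mouse retina by droplet single-nucleus RNA sequencing, in which each captured RNA molecule is counted as 1 unique molecular identifier (UMI). Its 4 libraries came from the left eyes of 4 mice, 2 aged 2.5 months and labelled wild type, and 2 aged 5 months whose labels give no genotype or strain. No treatment is labelled in either group. Age is the only difference that the labels name, but the genotype of the older mice is not known, and no purpose is stated for comparing the ages. The title and design text of the series speak of a human retina and an eye bank, although every library is labelled mouse.

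A homeodomain is a short helical fold that reads AT-rich DNA, and the factors that carry it act in combinations: each type of retinal neuron is made, and later kept, under a particular set of them. In the retina, Pax6, Six3, Rax and Lhx2 are known from the progenitors that give rise to all its neurons. Factors such as Lhx1, Isl1, Vsx1 and the Pou4f genes act in cells that have left the cycle. Many of them stay on in the adult, which is why their RNA can be read per cell type in mature tissue.

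The promoters of the 5 genes that were highest in bipolar cells are shown first, because Lhx4, Lhx3, Vsx1, Sebox and Isl1 shared a cell class in these libraries but split between its subtypes, as described below. Each line is the 250 bases upstream of a RefSeq transcription start (build GRCm38.p6), written in the direction of the gene, and capitals mark a match to a motif on either strand. Every window was searched for TAATTA (a homeodomain core), TAATCC (the site of OTX and CRX factors) and TGACAG (a MEIS site), the first 2 of which share the letters TAAT, and the letters of the reverse strand appear where the match lies there.
Lhx4, chr1:155742028-155742277, minus strand: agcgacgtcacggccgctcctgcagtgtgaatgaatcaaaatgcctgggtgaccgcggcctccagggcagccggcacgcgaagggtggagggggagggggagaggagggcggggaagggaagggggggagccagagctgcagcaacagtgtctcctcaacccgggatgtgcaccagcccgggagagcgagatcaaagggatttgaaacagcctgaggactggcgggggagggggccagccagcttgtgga
Lhx3, chr2:26208250-26208499, minus strand: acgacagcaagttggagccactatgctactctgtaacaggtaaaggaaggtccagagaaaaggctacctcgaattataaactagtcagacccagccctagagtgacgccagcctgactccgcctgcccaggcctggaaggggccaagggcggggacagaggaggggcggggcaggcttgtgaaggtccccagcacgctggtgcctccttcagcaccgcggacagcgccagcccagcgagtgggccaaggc
Lhx3, chr2:26206576-26206825, minus strand: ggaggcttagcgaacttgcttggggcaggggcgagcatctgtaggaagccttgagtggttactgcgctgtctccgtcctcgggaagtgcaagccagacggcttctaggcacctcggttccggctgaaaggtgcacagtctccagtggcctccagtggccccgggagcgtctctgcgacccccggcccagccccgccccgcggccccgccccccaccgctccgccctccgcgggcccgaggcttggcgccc
Vsx1, chr2:150689138-150689387, minus strand: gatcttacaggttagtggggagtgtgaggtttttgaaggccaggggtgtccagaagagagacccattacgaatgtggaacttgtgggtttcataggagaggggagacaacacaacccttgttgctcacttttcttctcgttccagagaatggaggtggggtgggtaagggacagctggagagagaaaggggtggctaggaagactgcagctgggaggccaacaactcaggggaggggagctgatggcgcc
Sebox, chr11:78503263-78503512, plus strand: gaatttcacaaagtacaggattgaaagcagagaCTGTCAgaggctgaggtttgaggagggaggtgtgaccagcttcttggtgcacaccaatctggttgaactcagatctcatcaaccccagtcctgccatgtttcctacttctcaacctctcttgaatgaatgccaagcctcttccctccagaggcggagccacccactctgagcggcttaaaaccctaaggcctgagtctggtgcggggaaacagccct
Isl1, chr13:116309689-116309938, minus strand: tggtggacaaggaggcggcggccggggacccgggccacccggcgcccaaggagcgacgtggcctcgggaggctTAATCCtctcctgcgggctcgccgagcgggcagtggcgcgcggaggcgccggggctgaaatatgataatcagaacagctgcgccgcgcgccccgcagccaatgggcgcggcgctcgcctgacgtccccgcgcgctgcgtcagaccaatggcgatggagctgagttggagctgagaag
These 6 windows held no TAATTA, 1 TAATCC match (Isl1) and 1 TGACAG match, which in Sebox lies on the other strand. Of the 40 genes, 29 had an entry in the RefSeq promoter table, with 40 such windows in all. TAATTA was in 0 of the 40 windows and in 4.84% of 32851 RefSeq promoters, TAATCC in 1 window and 6.252% of all promoters, and TGACAG in 8 windows (20%) and 15.86% of all promoters. The matches are descriptions of letters, not of binding.

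The 4 libraries held 32326 barcodes, of which 30839 nuclei passed the filters and 28278 fell into 12 classes named by markers, with the 40 genes left out of both clustering and naming. Library totals ran from 19608067 to 36320257 UMIs and median depth from 1812.5 to 2899.5 UMIs per nucleus. The 10 classes with at least 20 nuclei in every library were rod (8962 nuclei), cone (3206), bipolar (2877), horizontal (321), amacrine (5378), ganglion (1733), Müller glia (3237), pigment epithelium (283), melanocyte (284) and fibroblast (1683). Tissue labelled retina thus also held nuclei of the wall of the eye, and endothelium (155 nuclei) and striated muscle (159) were named but too thin to test. The summed level of 13 rod markers, at 23030 to 24730 UMIs per 1000000 UMIs of the class (CPM) in rods, was 776.8 to 1735 in ganglion nuclei and 2599 to 4747 in fibroblasts, so every class carried some rod RNA. Its part in the low levels below was not tested. Both 2.5-month files were written by Cell Ranger 7.1.0 and both 5-month files by 4.0.0, so a difference of age cannot be told apart from one of software. Nor can it be told apart from one of genotype, which is labelled only at 2.5 months. Any 2 libraries shared between 0.08084% and 0.3368% of barcodes.

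Every one of the 40 genes had at least 3 UMIs in each library of its highest class, and the mean there ran from 5.33 CPM (Pou3f1 in amacrine cells) to 1401 CPM (Pbx3 in cones), with a median of 112. The highest class was ganglion for 10 genes, horizontal for 7, Müller glia for 6, bipolar for 5, fibroblast for 4, amacrine and cone for 3 each, and pigment epithelium and melanocyte for 1 each. Among these 10 tested classes, 34 of the 40 thus peaked in a neuron or glia class of the retina, although Six3 was higher in the untested endothelium and Pax6 and Meis1 in untested pigmented clusters. For 29 genes no library of the highest class overlapped the next class, and for 11 genes the ranges overlapped. The peak stood at least 5-fold over the second class for 11 genes and under 2-fold for 19. Overlap and fold were not counted over all genes, so these counts describe levels and not a property of the set. No order between genes is drawn from these levels, which are not scaled by gene length.

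A test of each class against the mean of the other classes (edgeR's quasi-likelihood test on UMIs summed per class and library) covered 39 of the 40 genes in 10 classes, with Pou3f1 under the filter on low counts. Of these 390 tests, 112 gave a higher and 97 a lower level at an adjusted p under 0.05, against 27% higher and 22.5% lower for all genes. Ganglion nuclei had the most, with 24 of the 39 genes higher against 35.5% of all genes, and 26 genes reached a mean of 10 CPM there. Amacrine nuclei had 17 higher against 33.4%, bipolar and Müller nuclei 13 each against 26.4% and 29.5%, and horizontal nuclei 10 against 17.4%. Cones had 10 higher against 33%, fibroblasts 11 against 28.6% and pigment epithelium 7 against 17.5%. Rods had 6 higher against 31% and 13 lower against 31.5%, and melanocytes had 1 higher against 17.2% and 10 lower against 16.7%. A gene that passed the filter through the class where it is high had to differ, so these counts describe the map and support nothing further. The same holds for the counts within subtypes and for the adjusted p of single genes against the other classes or subtypes given below. The 40 genes together took 1275 CPM in melanocytes and 3877 CPM in amacrine nuclei, the lowest and highest sums of the 10 classes. The median nucleus held a UMI of 11 of the genes in ganglion, 9 in horizontal and 2 in rod nuclei, in the order of their median depths of 8683, 7111 and 1231 UMIs.

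**Figure D1:**
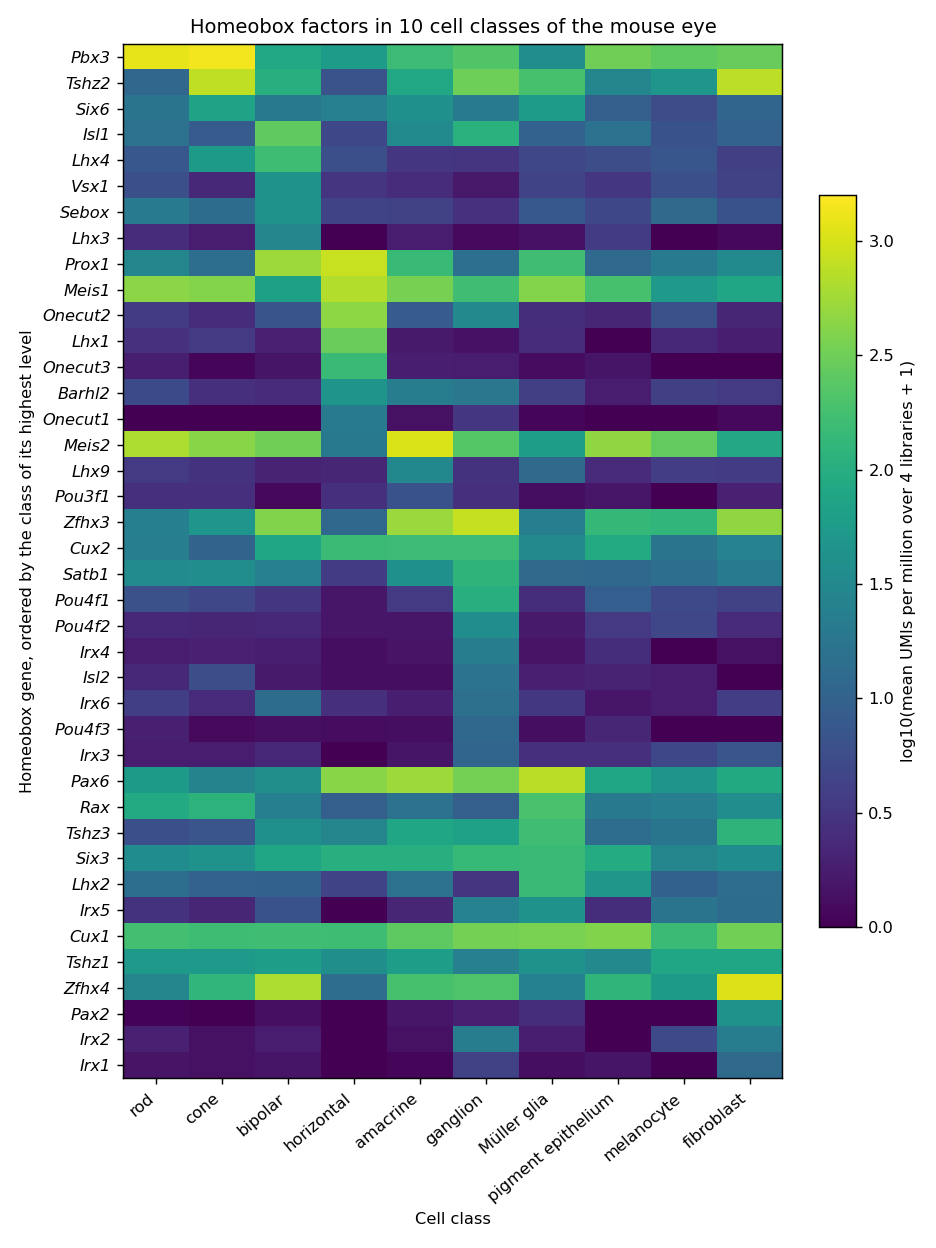
Heat map of the 40 genes (vertical axis, ordered by the class of the highest level) in 10 cell classes (horizontal axis). Colour is log10 of the mean CPM over 4 libraries plus 1, and the bright blocks show the 7 genes highest in horizontal, the 5 in bipolar and the 10 in ganglion nuclei.

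Horizontal cells, the inhibitory interneurons that contact photoreceptors, held 7 of the peaks. Lhx1, a LIM factor that places these cells in their layer, read 270.2 and 245 CPM in the 2.5-month libraries and 328 and 333 CPM in the 5-month libraries, or 294 ± 43.3 (SD, n = 4). The next class, cone, held 2.48 CPM, and no single library of another class reached the horizontal range (log2 difference from the mean of the other classes 8.87, edgeR adjusted p = 2.17e-38). A UMI of Lhx1 was found in 83.8% of horizontal nuclei (median depth 7111 UMIs) and in 0.346% of the deeper ganglion nuclei (8683). Onecut2, a CUT factor shared by horizontal and ganglion cells in development, read 536, 457, 446 and 362 CPM, with a mean of 450 ± 71.1 against 31.4 in ganglion nuclei. Its relative Onecut3 read 125, 156, 154 and 133 CPM, with 142 ± 15.2 against 0.878 in rods. Onecut1, which is needed to make these cells, was low at 19.3, 30.3, 16.8 and 15.03 CPM on 4, 13, 14 and 14 UMIs, and the next class, ganglion, was at 2.17. All 3 Onecut genes thus kept their horizontal libraries above every other class (log2 differences 7.40 for Onecut1, 7.51 for Onecut2 and 9.07 for Onecut3, edgeR adjusted p of 6.89e-13 or less).

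Other genes of the horizontal set were shared with further classes. Prox1, which directs progenitors toward horizontal fate, read 931, 828, 891 and 784 CPM (858 ± 65.6), with bipolar nuclei next at 532. It was called in both classes (log2 differences 4.76 and 3.62, edgeR adjusted p = 3.03e-36 and 1.10e-33), and their ranges did not overlap. Meis1, a TALE factor, read 593, 814, 706 and 564 CPM in horizontal nuclei (669 ± 114), over 439 in rods. Barhl2, known for work in amacrine and ganglion cells, read 43.4, 39.6, 39.6 and 54.7 CPM in horizontal nuclei (44.4 ± 7.15), over 21.3 in amacrine nuclei. Only 29 and 39 horizontal nuclei came from the 2.5-month libraries, against 119 and 134 at 5 months, so the younger values rest on few cells. At the level of nuclei, 166 of the 321 (51.7%) held UMIs of Lhx1, Onecut2 and Onecut3 together and 86 held Lhx1 and Onecut2 without Onecut3. The 6 nuclei with none of the 3 had a median of 3410 UMIs, below the 7111 of the class.

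Bipolar cells carry signals from photoreceptors to the inner retina, and 5 of the genes peaked in them. Isl1, a LIM factor needed by several bipolar types, read 255, 241, 245 and 307 CPM (262 ± 30.5), and ganglion nuclei were next at 115, 93.7, 100.4 and 132 (mean 110.3). The bipolar libraries all lay above the ganglion libraries, and horizontal nuclei held 4.01 CPM (log2 difference for bipolar 4.35, edgeR adjusted p = 1.03e-34). A UMI of Isl1 was in 44.1% of bipolar nuclei (median depth 3055) and in 1.75% of cone nuclei (2314.5). Lhx4, a LIM factor of cone bipolar cells, read 122, 153, 181 and 178 CPM (158 ± 27.1), with cones next at 54.6. Its close relative Lhx3 read 28.1, 22.8, 22.0 and 43.7 CPM (29.1 ± 10.1), with pigment epithelium next at 2.67. Vsx1, a Paired-like factor of cone bipolar cells, read 37.5, 37.0, 49.2 and 47.1 CPM (42.7 ± 6.35), against 5.05 in melanocytes. Sebox, the last of the 5 genes whose promoters stand above, read 52.8, 33.2, 35.3 and 49.4 CPM (42.7 ± 9.88), with rods next at 18.99. In none of the 5 did a bipolar library fall into the range of the next class.

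The class level hid a split between bipolar subtypes. Clustering gave 8 bipolar clusters, of which cluster 6 (794 nuclei) was rod bipolar-like, 17 (380) ON cone bipolar-like, and 18 (379), 19 (376) and 31 (222) OFF cone bipolar-like, while 24 (320), 29 (231) and 33 (175) stayed unnamed. ON bipolar cells use the metabotropic glutamate receptor Grm6, and Grm6 was at 447.9 CPM in cluster 17, 350 in cluster 6, 301.7 in cluster 33, 211.6 in cluster 24 and 144.5 in cluster 29. The 3 OFF cone bipolar-like clusters had 11.5, 7.36 and 3.59 CPM of Grm6. Isl1 followed the same division: cluster 6 read 336, 382, 369 and 600.0 CPM, cluster 17 read 401, 356, 466 and 504, and clusters 24, 29 and 33 had means of 392, 371 and 268. In the OFF cone bipolar-like clusters it was 12.4, 21.1, 12.5 and 8.03 CPM in cluster 18, 4.05, 19.9, 18.1 and 11.9 in cluster 19, and 13.3, 4.95, 8.40 and 0 in cluster 31. No library of a cluster with high Grm6 overlapped any library of the other clusters for Isl1 (log2 difference 2.36 for cluster 6 and -4.44 for cluster 31, edgeR adjusted p = 1.60e-25 and 4.79e-14).

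Across these clusters 19 of the 40 genes passed the filter, and 47 of 152 tests were higher and 34 lower, against 11.6% and 8.66% for all genes. Lhx4 ran another way from Isl1: it was highest in OFF cluster 18 at 243, 372, 548 and 421 CPM (mean 396), overlapping clusters 29 and 24 (316 and 313.5). It was 64.4 in rod bipolar-like cluster 6, 20.6 in cluster 33 and 8.47 in ON cone bipolar-like cluster 17. Prox1 was highest in cluster 6 at 821, 1039, 1002 and 823 CPM (mean 922) and lowest in the OFF clusters 19 (188.5) and 18 (154.5). Sebox was mostly in cluster 6, with 326 of its 394 bipolar UMIs, at 136, 87.8, 92.9 and 187 CPM (mean 126) with at most 14.3 in any other cluster (log2 difference 3.62, edgeR adjusted p = 5.08e-21). Rod bipolar-like nuclei therefore combined Isl1, Prox1 and Sebox with a level of Lhx4 between those of clusters 18 and 17.

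Lhx3, Vsx1 and Irx6 marked further clusters. Lhx3 read 146, 116, 109 and 277 CPM in OFF cluster 31 (mean 162), with 58.9 in cluster 19 and 52.7 in cluster 17, and had 0 UMIs in clusters 24 and 33. Vsx1 read 186, 168, 226 and 175 CPM in cluster 33 (mean 189) and 153, 102, 118 and 166 in cluster 31 (mean 135), ranges that did not overlap, then 81.9 in cluster 17, 32.9 in cluster 19 and at most 8.44 elsewhere. Irx6, an Iroquois factor, was at 44.5, 35.9, 54.3 and 71.4 CPM in cluster 19 (mean 51.5), overlapping cluster 31 (45.3), and at 0 UMIs in cluster 18. Irx5, a second Iroquois factor of cone bipolar cells, was also highest in cluster 19 (19.7) and then 31 (12.8). Clusters 19 and 31 thus shared Lhx3, Vsx1, Irx5 and Irx6, which the remaining OFF cluster, 18, held at 1.03, 2.44, 4.58 and 0 CPM.

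Genes known from other classes also divided the bipolar clusters. Meis2, best known from amacrine cells, read 1692, 1618, 1968 and 1701 CPM in cluster 24 (mean 1745), 755 in cluster 18, 167 in cluster 29 and less in the rest (log2 difference for cluster 24 4.29, edgeR adjusted p = 3.25e-38). Zfhx4, a very large factor with zinc fingers and homeodomains, read 2941, 3541, 3887 and 3292 CPM in cluster 31 (mean 3415), 1320 in cluster 19 and 849 in cluster 17, but 26.1 in cluster 18 and 25.2 in cluster 24. Its library ranges in clusters 31, 19 and 18 did not overlap. Tshz2 was highest in cluster 17 (496) and then 19 (230), and Six3 in cluster 31 (269.5) and then 17 (157). Pax6 lay between 24.6 and 51.3 CPM in all 8 clusters, without the divisions seen in the other genes.

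**Figure D2:**
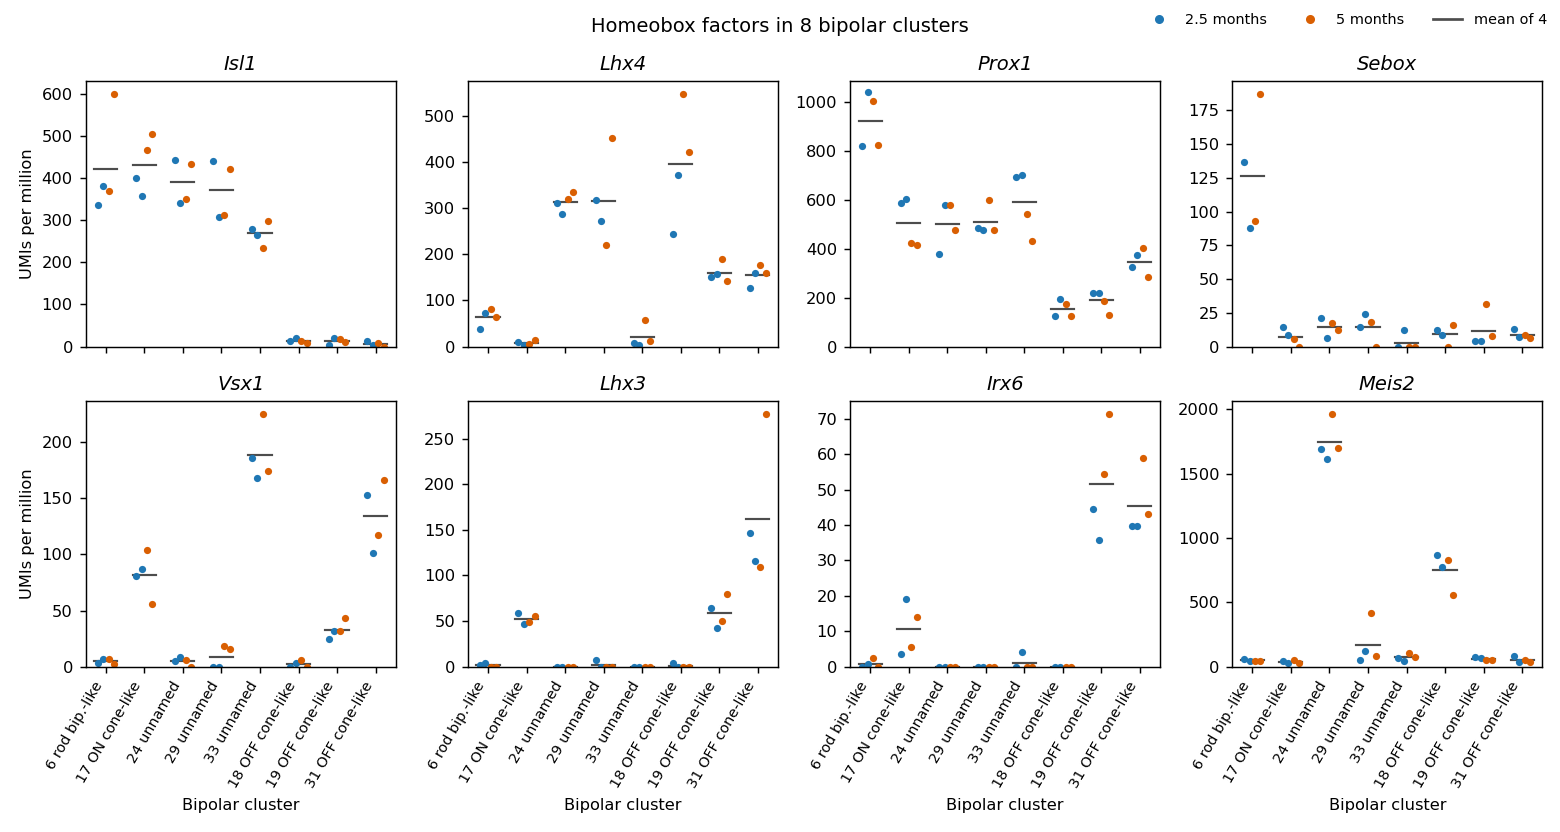
CPM (vertical axes, linear, each panel to its own scale) of 8 genes in 8 bipolar clusters (horizontal axes), with a point per library coloured by age and a bar for the mean of 4. Isl1 points of clusters 6, 17, 24, 29 and 33 all lie above those of the OFF cone bipolar-like clusters 18, 19 and 31, and Sebox stands out in cluster 6 with a mean of 126 CPM.

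Amacrine cells are the inhibitory interneurons of the inner retina, and 3 genes peaked in them. Meis2 read 901, 988, 1163 and 1071 CPM (1031 ± 112), with rods next at 643 and horizontal nuclei lowest at 18.4 (log2 difference for amacrine 2.54, edgeR adjusted p = 1.42e-27). A UMI of Meis2 was in 56.7% of amacrine nuclei (median depth 4503.5) and in 9.03% of the deeper horizontal nuclei (7111). Lhx9, a LIM factor of some amacrine types, read 21.4, 28.2, 37.8 and 33.8 CPM (30.3 ± 7.14), over 11.7 in Müller nuclei. Pou3f1, a POU factor, read only 4.52, 4.07, 4.84 and 7.90 CPM (5.33 ± 1.74), with ganglion nuclei next at 1.803, and 2.01% of amacrine nuclei held a UMI. For each of these 3 genes every amacrine library lay above the next class, although for Pou3f1 a horizontal library reached 4.82.

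The amacrine nuclei formed 12 clusters. Clusters 12 (602 nuclei), 13 (561) and 15 (442) were glycinergic-like by the glycine transporter Slc6a9 (432, 704 and 623 CPM, with 390 in the unnamed cluster 25), 28 (270) was starburst-like, and 7 (788), 10 (752), 11 (700), 14 (467), 25 (317), 32 (180), 35 (158) and 38 (141) stayed unnamed. Of the 40 genes, 22 passed the filter here, with 82 of 242 tests higher and 80 lower against 13% and 8.91% for all genes, cluster 38 not being tested. Meis2 split the clusters into a high and a low set. It was at 1781, 1930, 2044 and 1855 CPM in cluster 10 (mean 1903), with means of 1916 in cluster 14, 1610 in 7, 1563 in 11 and 990.1 in 35. In the other clusters it was 147 (cluster 12), 131 (32), 44.6 (38), 35.3 (15), 34.4 (13), 33.6 (25) and 26.3 (28). Gad1, which makes the transmitter GABA, was at 262 to 430 CPM in clusters 7, 10, 11 and 14 of the high set but also at 412 in 28, 586 in 32 and 572 in 38 of the low set. The Meis2 set and the Gad1 set were therefore not the same clusters.

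Prox1 was highest in the 3 glycinergic-like clusters. It read 926, 994, 799 and 772 CPM in cluster 15 (mean 873), 440 in cluster 13 and 209.6 in cluster 12, and 62.0 or less in each of the others, cluster 25 with its Slc6a9 included (log2 difference for cluster 15 4.95, edgeR adjusted p = 1.19e-47). All 3 of these clusters were in the low Meis2 set. Over single nuclei, 2631 of 5378 (48.9%) held Meis2 without Prox1, 940 (17.5%) Prox1 without Meis2, 418 (7.77%) both and 1389 (25.8%) neither.

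Isl1 marked the starburst-like cluster, the cholinergic amacrine cells that shape direction selectivity. Cluster 28 read 425, 340, 412 and 481 CPM (mean 414) with a UMI in 85.9% of its nuclei, and the next cluster, 14, had 15.7 (log2 difference 6.07, edgeR adjusted p = 1.93e-46). Tshz3 was high in the same cluster at 349, 321, 571 and 518 CPM (mean 440) and in cluster 35 at 355, 800, 745 and 572 (mean 618), ranges that overlapped, and 68.3 in cluster 10, the next. Cux2 was highest in the starburst-like cluster at 297, 437, 440 and 304 CPM (mean 369.5). These cells thus held Isl1, Tshz3 and Cux2 with 26.3 CPM of Meis2.

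Cluster 35, an unnamed cluster with little Gad1 (70.8 CPM), had 12 of the 22 genes higher, against 7.7% of all genes. Every tested amacrine cluster had a larger share of the 22 genes higher than of all genes. That share ran from 18.2% in cluster 15 to 54.5% in cluster 35, so the count describes the map only. Zfhx3 read 2119, 2819, 2200 and 1937 CPM there (mean 2268), over 1304 in cluster 7 and 769 in cluster 10. Pou3f1, so low in the class as a whole, read 27.3, 26.5, 26.8 and 64.0 CPM in cluster 35 (mean 36.2), then 20.5 in cluster 7 and 10.4 in cluster 32. Lhx9 had means of 129 in cluster 35, 107 in 32, 93.1 in 14, 53.8 in 11 and 35.7 in 25. Pax6, which amacrine cells keep, was also highest in cluster 35 (912), ahead of cluster 13 (818).

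The remaining clusters were less clearly set apart. The highest levels of Lhx2, Meis1, Barhl2, Cux1 and Pbx3 given here overlapped the next cluster, while that of Tshz1 did not. Cluster 25, which expresses the glutamate transporter Slc17a8 (746 CPM), held Lhx2 at 63.0, 85.0, 81.6 and 86.0 CPM (mean 78.9), with 52.4 in cluster 35. Cluster 38 held Tshz1 at 425, 356, 428 and 381 CPM (mean 397), against 139 in cluster 13, and Meis1 at 963, but it had only 15 nuclei in a 2.5-month library and was not tested. Cluster 32 held Cux1 at 1026, 983, 715 and 495 CPM (mean 805), overlapping cluster 38 (499). It also held Barhl2 at 46.6, near the 44.7 of cluster 25, and Six3 at 263. Six3 was also 235 in cluster 10, but 20.3 in cluster 14, so clusters of the high Meis2 set differed in it. Pbx3 was 490 in cluster 10 and 398 in the starburst-like cluster, and 38.9 in cluster 15.

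**Figure D3:**
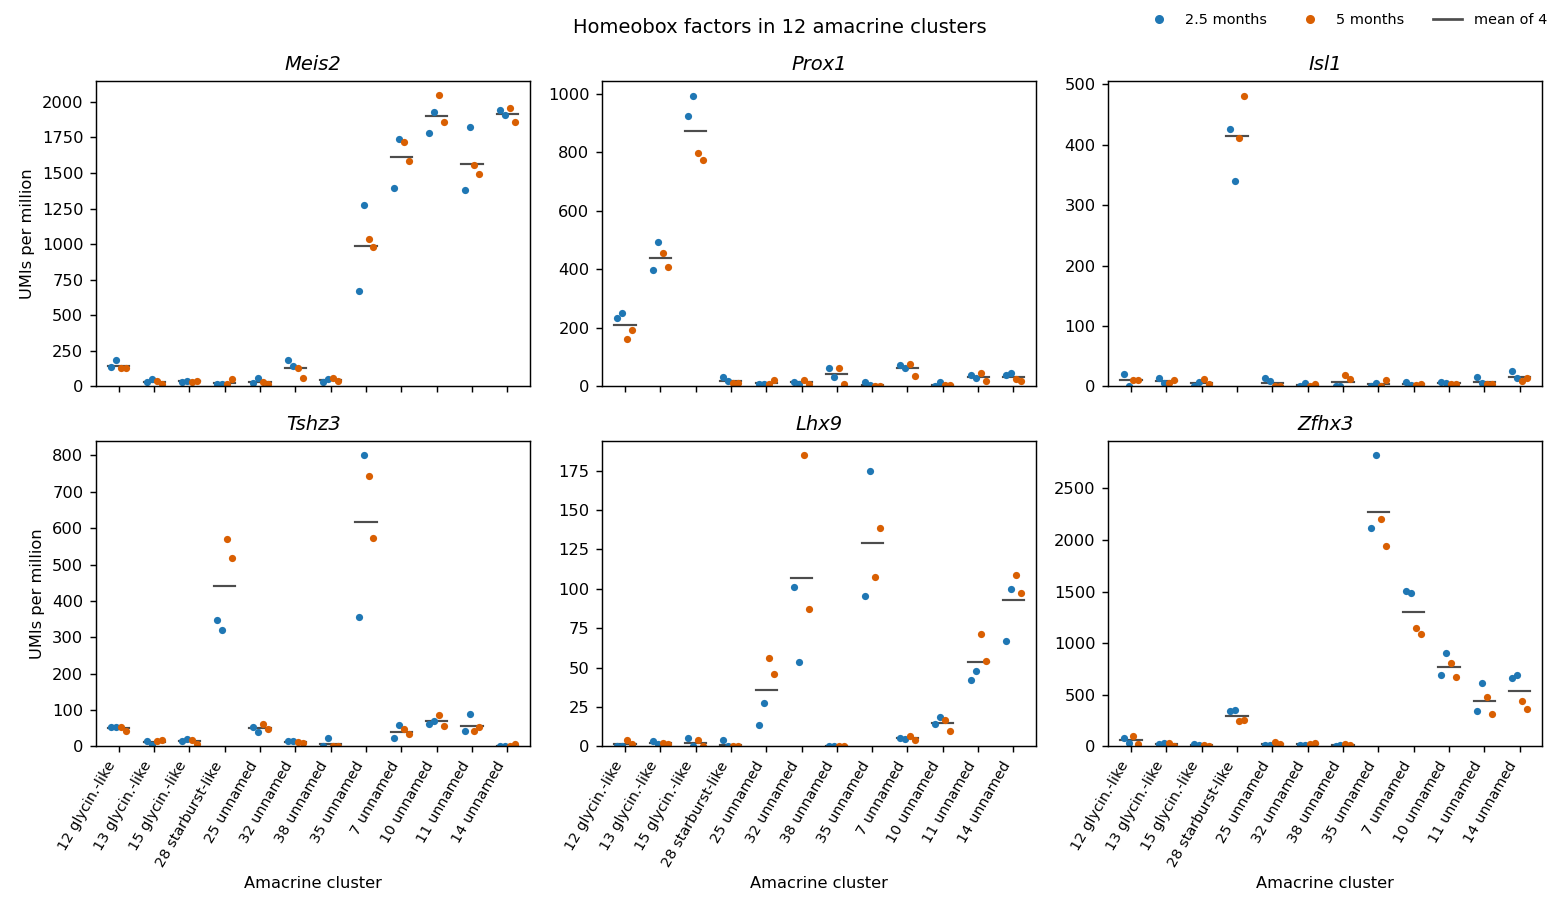
CPM (vertical axes, linear, each panel to its own scale) of 6 genes in 12 amacrine clusters (horizontal axes), with a point per library coloured by age and a bar for the mean of 4. Meis2 is high in clusters 7, 10, 11, 14 and 35, Prox1 in the glycinergic-like clusters 12, 13 and 15, and Isl1 in the starburst-like cluster 28 with a mean of 414 CPM.

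Ganglion cells send the output of the eye to the brain, and 10 genes peaked in them. Pou4f1, a POU factor that most ganglion cells keep, read 108, 118, 97.9 and 93.2 CPM (104 ± 11.05), with a UMI in 54.9% of nuclei (median depth 8683) against 0.623% in horizontal nuclei (7111). Pou4f2, which drives ganglion differentiation, read 47.1, 36.6, 28.98 and 30.97 CPM (35.9 ± 8.14), with 23.6% of nuclei against 0.312% in horizontal nuclei. Pou4f3, the third member, read 13.6, 8.91, 8.52 and 12.8 CPM (10.95 ± 2.61), with a UMI in 8.42% of nuclei. Ganglion libraries lay above all other classes for the 3 genes (log2 differences 5.33, 4.96 and 5.37, edgeR adjusted p = 5.57e-35, 1.29e-27 and 1.48e-19).

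Isl2, a LIM factor of ganglion subsets, read 15.6, 11.5, 18.8 and 17.2 CPM (15.8 ± 3.10), over 4.88 in cones. Satb1, a CUT factor and chromatin organiser, read 134, 134, 117 and 96.4 CPM (120.1 ± 17.7), over 39.6 in amacrine nuclei. Zfhx3 read 848, 919, 828 and 732 CPM (832 ± 77.01), over 523 in amacrine nuclei. In these 3 genes the ganglion libraries did not overlap the next class. Cux2, by contrast, read 148, 166, 162 and 147 CPM (156 ± 9.45), the same range as amacrine (154) and horizontal nuclei (152), and 9.57 in cones.

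Of the Iroquois genes, Irx4 read 23.6, 18.8, 21.6 and 23.2 CPM in ganglion nuclei (21.8 ± 2.18), far over the 1.65 of the next class. Irx3 read 11.6, 10.9, 7.39 and 9.95 CPM (9.95 ± 1.84), with fibroblasts at 5.90 and a melanocyte library inside its range. Irx6 read 13.2, 14.8, 12.9 and 16.6 CPM (14.4 ± 1.71) and overlapped bipolar nuclei (12.3). Irx2 had 14.8, 16.5, 23.7 and 30.97 CPM in ganglion nuclei (mean 21.5) and 21.03, 18.7, 16.98 and 31.4 in fibroblasts (22.0 ± 6.45), so its 2 highest classes could not be told apart.

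Ganglion nuclei were sorted by markers into Eomes-like (202 nuclei), Foxp2-like (177), direction selective-like (180), Tbr1-like (150), alpha-like (63) and other nuclei (961), and the Tbr1-like and alpha-like groups were too thin to test. The other nuclei pool unnamed clusters, among them a cluster led by Foxp2 (91 nuclei) and a cluster led by Cartpt (48). They also hold a cluster with Spp1 among its leading genes (168 nuclei), which is larger than the alpha-like group. The named groups therefore do not hold all nuclei with their markers, and the alpha-like name rests on Spp1, Il1rapl2 and Kit. Here 25 genes passed the filter, and 40 of 100 tests were higher and 25 lower against 7.24% and 5.87% for all genes. The POU genes divided these groups. Pou4f1 read 159, 186, 151 and 105 CPM in Foxp2-like nuclei (mean 150) and 29.9, 27.6, 16.6 and 21.9 in Eomes-like nuclei (mean 23.99), which include the light-sensing ganglion cells (log2 difference for Eomes-like nuclei -2.20, edgeR adjusted p = 2.11e-12). Pou4f2 ran the other way at 73.5, 55.2, 52.4 and 63.05 CPM in Eomes-like nuclei (mean 61.04), against 22.2 in Foxp2-like and 9.41 in direction selective-like nuclei (log2 difference 1.90, edgeR adjusted p = 1.90e-09). Tbr1-like nuclei held both, Pou4f1 at a mean of 144 and Pou4f2 at 190, 88.1, 121 and 119 CPM (mean 129). Alpha-like nuclei held little of Pou4f1, with a mean of 16.0.

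Pou4f3 was at 16.1 CPM in Foxp2-like, 14.8 in other and 12.1 in direction selective-like nuclei. It had 0 UMIs of 2376681 in Eomes-like nuclei, a count that allows up to 1.26 CPM, and 0 of 637023 in alpha-like nuclei, which allows up to 4.71 CPM (counting error only). Over single nuclei, 663 of 1733 (38.3%) held Pou4f1 alone of the 3 genes, 183 (10.6%) Pou4f2 alone, 192 (11.1%) both of these without Pou4f3, and 23 all 3. No UMI of any was found in 549 nuclei (31.7%), whose median depth of 7466 UMIs was below the 11690 of the nuclei with all 3, so depth moved with the number found.

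Satb1 marked the direction selective-like group at 331, 368, 291 and 241 CPM (mean 308), over 115 in other nuclei, 49.7 in Foxp2-like and 41.9 in Eomes-like nuclei (log2 difference 2.25, edgeR adjusted p = 4.25e-16). Tshz2 marked Foxp2-like nuclei at 857, 1306, 862 and 764 CPM (mean 947) and was lowest in direction selective-like nuclei at 53.0 (log2 difference for Foxp2-like nuclei 2.56, edgeR adjusted p = 2.65e-21). Isl2 was 32.1 in Foxp2-like and 22.3 in other nuclei but 0.690 in Eomes-like nuclei. Barhl2 was likewise 37.9 in Foxp2-like, 30.5 in Tbr1-like and 29.3 in direction selective-like nuclei and 1.68 in Eomes-like nuclei. Onecut2 was the reverse of these, at 58.5 in Eomes-like, 60.4 in alpha-like and 5.74 in Foxp2-like nuclei. Meis2 was 319 in Foxp2-like, 311 in other and 293 in Tbr1-like nuclei, but 37.7 in Eomes-like, 32.5 in direction selective-like and 8.88 in alpha-like nuclei. Isl1 ran from 219.5 in Tbr1-like to 53.4 in alpha-like nuclei, and Zfhx3 from 1023 in Eomes-like to 424 in Foxp2-like nuclei. Meis1 (148 to 195) and Cux2 (135 to 186) were spread over all 6 groups.

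The Iroquois genes were thin in Foxp2-like nuclei as a family. Irx1, Irx2, Irx3 and Irx6 each had 0 UMIs there, which allows up to 2.05 CPM each, and Irx4 and Irx5 were at 0.579. Irx1 was at 24.5, 23.7, 19.3 and 16.7 CPM in Eomes-like nuclei (mean 21.05) and 0 in alpha-like and direction selective-like nuclei. Irx3 read 68.1, 57.5, 49.2 and 43.4 CPM in alpha-like nuclei (mean 54.6), with Eomes-like nuclei at 17.9, and Irx5 read 102, 115, 49.2 and 104 there (mean 92.5), with Tbr1-like nuclei at 33.8. Alpha-like nuclei were also the highest for Irx4 (38.9), followed by other nuclei (31.2) and direction selective-like nuclei (18.5). Irx2 was 29.2 in other, 28.8 in alpha-like and 27.7 in Eomes-like nuclei, and Irx6 35.2 in Tbr1-like, 32.3 in Eomes-like and 17.8 in direction selective-like nuclei. Irx2 and Irx4 had 0 UMIs in Tbr1-like nuclei. The alpha-like values rest on 7 to 28 nuclei per library.

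**Figure D4:**
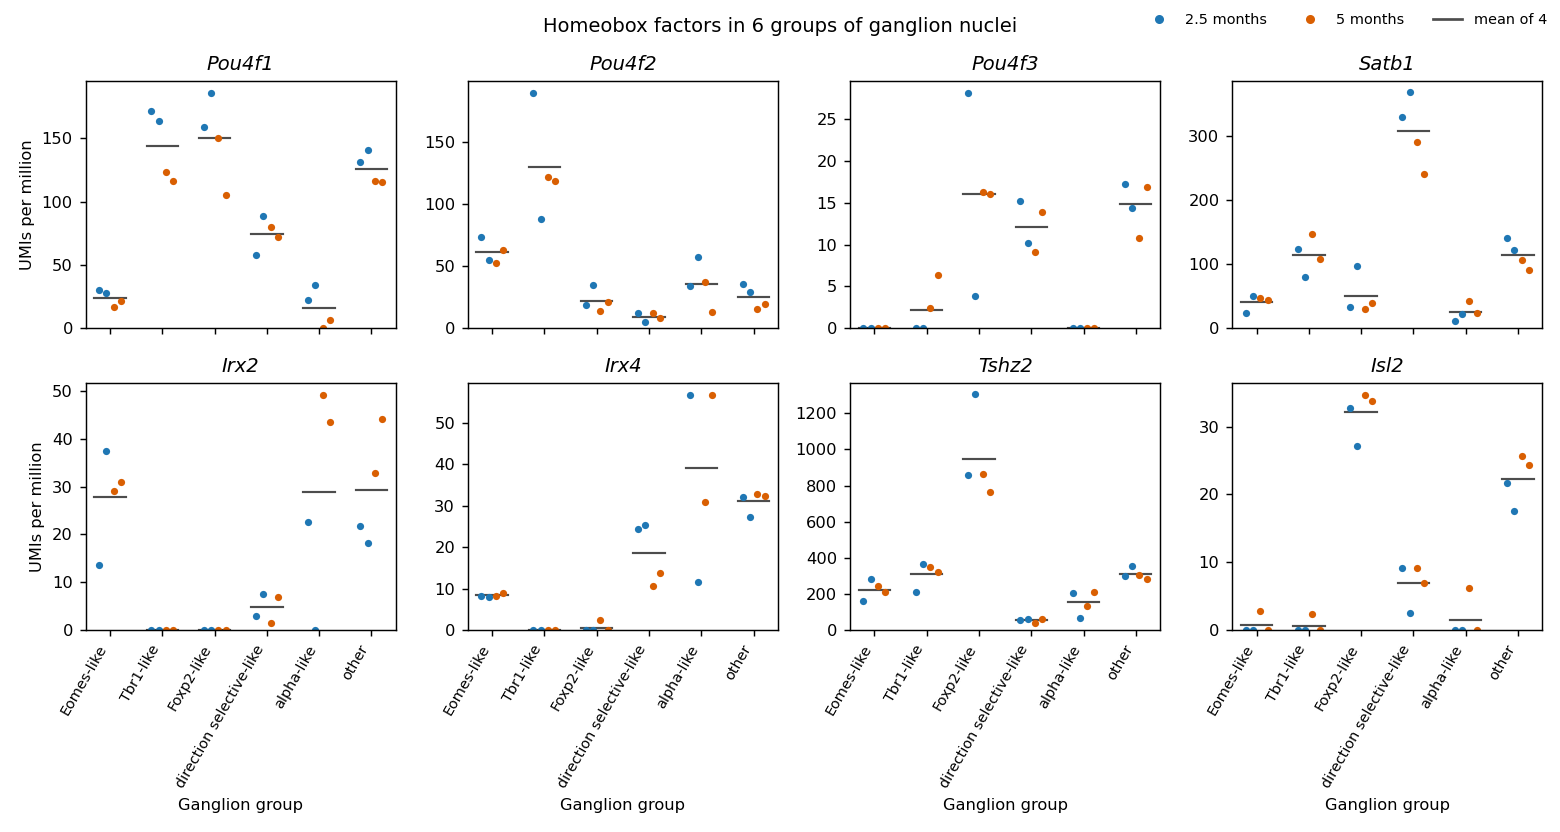
CPM (vertical axes, linear, each panel to its own scale) of 8 genes in 6 groups of ganglion nuclei (horizontal axes), with a point per library coloured by age and a bar for the mean of 4. Pou4f1 is low and Pou4f2 raised in Eomes-like nuclei (means 23.99 and 61.04 CPM), Pou4f3 is at 0 there and in alpha-like nuclei, and Satb1 stands out in direction selective-like nuclei.

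Müller glia, the radial support cells of the retina, kept genes of the early eye field. Pax6, the eye field regulator, read 825, 679, 748 and 706 CPM (739 ± 63.7), above amacrine (536), horizontal (432) and ganglion nuclei (338), and far above bipolar (36.7) and cone nuclei (25.8). Lhx2 read 129, 162, 133 and 142 CPM (142 ± 14.6), with pigment epithelium next at 48.1 and a UMI in 32.1% of Müller nuclei (median depth 2813) against 1.67% of ganglion nuclei (8683). Both were clear of the next class (log2 differences 2.95 and 4.03, edgeR adjusted p = 9.39e-34 and 1.40e-36). Rax, needed for the eye to form, read 184, 131, 180.0 and 255 CPM (187 ± 50.8), and its range overlapped that of cones (116). Six3 read 134, 156, 136 and 152 CPM (144 ± 10.98) and overlapped ganglion nuclei (137), so its order between these classes is not set. Irx5 read 32.4, 40.5, 35.6 and 59.9 CPM (42.1 ± 12.3), over 25.1 in ganglion nuclei. Tshz3, a teashirt factor, read 108 and 86.9 CPM at 2.5 months and 242 and 220 at 5 months (164 ± 78.0) and overlapped fibroblasts (121).

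Of the 39 tested genes, cones had 10 higher against 33% of all genes, and rods 6 against 31%. Cones were the highest class for 3 genes, each of which overlapped the next class. Pbx3, a TALE partner of MEIS and other homeodomain proteins, read 1520, 1533, 1463 and 1087 CPM in cones (1401 ± 211), overlapped rods (1221) and was 35.6 in Müller nuclei. It was higher in both photoreceptor classes (log2 differences 2.95 and 2.56) and lower in Müller nuclei (-2.81, edgeR adjusted p = 1.08e-22). Tshz2 read 748, 851, 824 and 731 CPM in cones (788 ± 58.1) and overlapped fibroblasts (757). Six6, an eye field factor, read 56.7, 56.9, 61.8 and 96.4 CPM in cones (68.0 ± 19.1) and overlapped Müller nuclei (56.5).

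Of the 10 tested classes, those outside the neural retina were the highest for 6 genes. For all but Pax2, the mean of a single subtype of retinal neurons was higher still. Zfhx4 was at 3415 CPM in bipolar cluster 31, Tshz1 at 397 in amacrine cluster 38 and Cux1 at 805 in amacrine cluster 32. Irx1 was at 21.05 in Eomes-like and Irx2 at 29.2 in other ganglion nuclei. Pax2, known from the optic stalk, was highest in fibroblasts at 21.7, 39.2, 65.3 and 45.4 CPM (42.9 ± 17.998, log2 difference 7.43, edgeR adjusted p = 1.17e-18). All 194 of its fibroblast UMIs came from cluster 20, at 90.8, 191, 293 and 243 CPM (mean 205), and the fibroblast clusters 5 and 22 held 0. Zfhx4 read 1059, 1243, 1194 and 858 CPM in fibroblasts (1089 ± 172), over bipolar nuclei (641). Irx1 read 14.9, 8.90, 6.53 and 16.7 CPM there (11.8 ± 4.82). Cux1 was highest in pigment epithelium at 421, 450, 374 and 324 CPM (392 ± 55.5), overlapping Müller nuclei (361). Tshz1 was highest in melanocytes at 69.8, 106, 72.4 and 55.8 CPM (76.0 ± 21.3), overlapping fibroblasts (75.2). The last 2 genes were thus spread over most classes of the eye.

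Genes that act beside these factors were read from 4 lists: 9 LIM cofactors, 5 measured Groucho corepressors, 58 further homeobox genes and 16 retinal factors without a homeobox. Of the LIM cofactors, Ssbp2 was highest in Müller nuclei at 880, 906, 897 and 737 CPM (mean 855) and Ssbp3 in the same class (177). Ldb2 was highest in bipolar nuclei at 761, 796, 746 and 628 CPM (mean 733) and lowest in horizontal nuclei (6.59). Of the corepressors, Tle4 was highest in pigment epithelium at 825, 720.0, 729 and 438 CPM (mean 678), Tle1 in Müller nuclei (194) and Aes in rods (88.0). Of the further homeobox genes, Zeb2 was highest in horizontal nuclei at 1471, 1565, 2175 and 1361 CPM (mean 1643), with melanocytes at 1615, and Zeb1 in fibroblasts (509). Of the rest, Ebf1 was highest in ganglion (2216), Mitf in melanocyte (1420) and Tfap2b in horizontal nuclei (791.5), and these 3 also served as class markers, so their place is no result. By age, none of the 4 lists had a gene called by edgeR in 71, 43, 224 and 94 tests, and 8, 4, 8 and 6 of those tests (11.3%, 9.30%, 3.57% and 6.38%) had an unadjusted p under 0.05, against 6.96% of all gene and class tests.

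The comparison of 5 with 2.5 months was fitted in each class over all genes, with 2 mice per age. In 210 tests on the 40 genes, 1 was called at an adjusted p under 0.05, against 0.0696% of all gene and class tests, and 26 had an unadjusted p under 0.05, against 6.96%. The call was Tshz3 in Müller glia, where 0.0635% of genes were called higher. Its 2.5-month libraries read 108 and 86.9 CPM and its 5-month libraries 242 and 220, so both older mice were above both younger ones (log2 fold change 1.30 ± 0.18 SE, edgeR adjusted p = 0.0188). Without the second 2.5-month library the change was 1.14 with an edgeR adjusted p of 0.117. With only 2 mice per age, and with the software version changing at the same point, the change cannot be told apart from a difference of software. The same holds for a difference of genotype, which is not labelled at 5 months. Doublets were also removed almost only at 5 months (672 and 784 nuclei, against 3 and 1 at 2.5 months). The call was also made with doublets kept.

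In other classes Tshz3 was not called by age. It read 64.5, 80.5, 84.2 and 75.9 CPM in amacrine nuclei, 55.9, 75.9, 79.7 and 57.8 in ganglion nuclei, 34.1, 39.3, 37.3 and 46.0 in bipolar nuclei and 106, 124, 131 and 124 in fibroblasts. In each of these 4 classes the ranges of the 2 ages overlapped, as they did in the low levels of cone, pigment epithelium and melanocyte nuclei, while rods read 4.003 and 3.66 against 6.51 and 5.81 CPM. In horizontal nuclei it read 38.6, 37.3, 19.2 and 15.03 CPM, with lower values in both older mice (log2 fold change -0.95, edgeR adjusted p = 0.721). A test of the difference between classes was added after the values were seen. It gave a larger age change of Tshz3 in Müller than in amacrine nuclei by 1.24 on the log2 scale (SE 0.17, edgeR adjusted p = 1.09e-06, where 0.478% of genes were called). The change was also larger than in horizontal, ganglion, bipolar and fibroblast nuclei, by 2.31, 1.25, 1.18 and 1.16, in pairs where 0.464%, 0.112%, 0.0676% and 0.502% of genes were called. In the pairs of Müller glia with rod, cone, pigment epithelium and melanocyte nuclei the difference was 0.62, 1.24, 1.05 and 1.26 without a call (edgeR adjusted p of 0.753 or more). All 5 calls rest on the second 2.5-month library, without which none was made. In the ganglion and amacrine pair, where 0.557% of genes were called, Isl1 was the only one of the 40 genes called, with an age change larger in ganglion nuclei by 0.59 (SE 0.14, edgeR adjusted p = 0.0347), a call lost under 5 of 8 alternatives. Within the starburst-like amacrine cluster, Tshz3 also had higher values in both older mice (349 and 321 against 571 and 518 CPM), but with an edgeR adjusted p of 0.353.

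**Figure D5:**
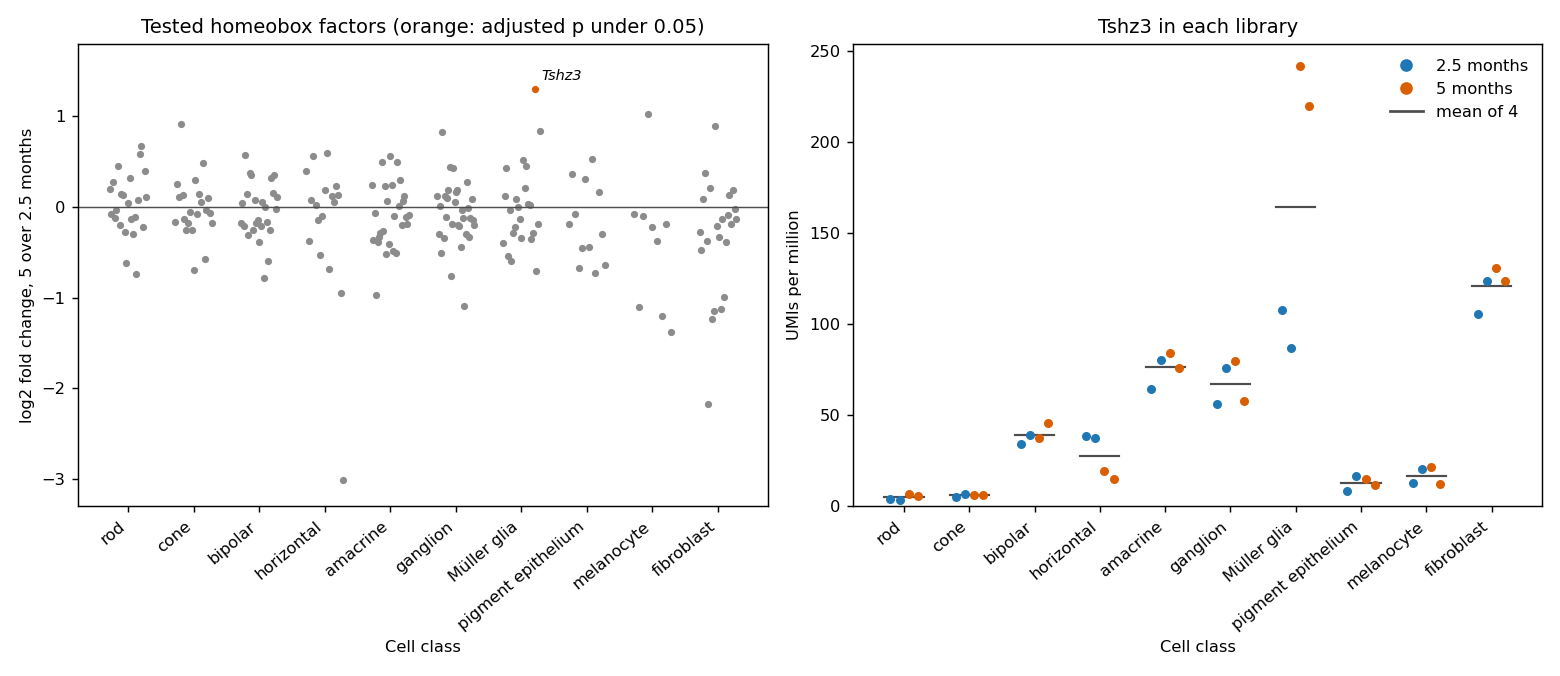
Left, log2 fold change of 5 over 2.5 months (vertical axis) for every tested gene of the 40 in 10 classes (horizontal axis), with the only call, Tshz3 in Müller glia at 1.30, in orange. Right, CPM of Tshz3 (vertical axis, linear) in each library by class, coloured by age with a bar for the mean of 4, where the 2 older Müller libraries stand at 242 and 220.

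Changes of other genes with age did not pass adjustment. In Müller glia Zfhx4 read 13.3, 21.5, 37.2 and 24.99 CPM (log2 fold change 0.84, edgeR adjusted p = 0.739), and Rax had a log2 fold change of 0.52. In ganglion nuclei Rax read 13.98, 8.91, 5.49 and 4.90 CPM, with both older libraries below both younger ones but no call (-1.09, edgeR adjusted p = 0.568), and Irx2 had a log2 fold change of 0.83. In horizontal nuclei Zfhx4 read 28.95, 18.7, 2.40 and 2.15 CPM on 6, 8, 2 and 2 UMIs (-3.01, edgeR adjusted p = 0.326), and the change turned to 0.49 with doublets kept. Horizontal nuclei had 3 of 17 tested genes lower and 2 higher at an edgeR unadjusted p under 0.05, against 6.84% of all genes in either direction. Fibroblasts had 5 of the 22 tested genes lower and 1 higher at an edgeR unadjusted p under 0.05, against 8.14% of all genes in either direction. The higher gene was Pax2 (21.7, 39.2, 65.3 and 45.4 CPM). The lower genes were Isl1 (16.3, 13.4, 3.92 and 2.67 CPM), Meis1 (106, 109, 48.3 and 40.7), Meis2 (112, 125, 56.2 and 48.0), Prox1 (log2 fold change -1.12) and Satb1 (-0.99). For the first 3 of these both older libraries lay below both younger ones. With doublets kept, which had been removed almost only at 5 months, Meis2 and Prox1 turned to 0.065 and 0.054. Rod RNA moved in part with them, the sum of rod markers in fibroblasts being 4747, 3505, 4104 and 2599 CPM, and its part was not tested. The median log2 fold change of the tested genes ran from -0.24 to 0.06 over the 10 classes, against 0.01 to 0.04 for all genes.

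Subtypes gave no call by age. In 346 tests over 23 bipolar, amacrine and ganglion subtypes, a comparison added after the class results were seen, edgeR called 0 of the genes and 27 had an unadjusted p under 0.05, against 0.103% and 6.86% of all genes. The largest departures by p were a lower Zfhx3 in amacrine cluster 14 at 5 months (log2 fold change -0.78, edgeR adjusted p = 0.179) and the Tshz3 values of the starburst-like cluster given above. In each of the 4 libraries, and so at both ages, Isl1 was higher in rod bipolar-like cluster 6 than in the OFF cone bipolar-like clusters, Prox1 was highest of the amacrine clusters in cluster 15, and Pou4f1 was higher in Foxp2-like than in Eomes-like nuclei.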

How the data were processed

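Nuclei of 4 mouse retinas, 2 aged 2.5 months and 2 aged 5 months, were analysed from the deposited count matrices, which hold whole UMI counts per gene and barcode as the authors deposited them. Per the file headers they were written by Cell Ranger 7.1.0 (both 2.5-month libraries) and 4.0.0 (both 5-month libraries), and the build is mm10 per the submitters' processing notes. Whether intronic reads were counted, and by which settings, is not given in the sources used here. Libraries held 7404, 7422, 7537 and 9963 barcodes.

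Barcodes under 300 genes or over 5% mitochondrial UMIs were dropped. Scrublet, run through scanpy 1.11.5 at an assumed rate of 0.06, marked 672 and 784 nuclei in the 5-month libraries, which were removed, but 3 and 1 in the 2.5-month libraries, where it had not worked, so doublets stayed there. Counts were scaled to 10000 per nucleus, and 2000 variable genes, 30 principal components, 15 neighbours and Leiden clustering at resolution 1 gave 42 clusters. The 40 genes and the partner lists were left out of the variable genes. The 40 genes were also left out of naming, but some partner genes, among them Ebf1, Mitf, Tfap2b, Eomes and Tbr1, served as naming markers. A cluster took a class name from at least 3 of its markers at a log2 fold change of 1, some clusters were set aside by hand after their leading genes were seen, and ganglion nuclei were divided further at resolution 0.2 and by markers. The 2561 nuclei outside the named classes entered no test. With the 40 genes allowed among the variable genes, 99.61% of nuclei kept their class.

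UMIs were summed per library and class or subtype. Levels are CPM of those sums, given as mean ± SD over 4 libraries, each from a different mouse by the donor labels. Tests used edgeR 4.0.16 (quasi-likelihood, TMM scaling, filterByExpr) under R 4.3.3, fitted over all genes with Benjamini-Hochberg adjustment at 0.05, on units with at least 20 nuclei in every library. Maps compared each unit with the mean of the others with the library as a block, and age was fitted within each unit. Classes and their tests come from the same nuclei, so calls are read beside the share of all genes called. The scripts were tested on simulated counts. Alternatives were DESeq2 1.42.0, another scaling, no filter, doublets kept, thinned sums, a replicate block and each library left out. Shares of nuclei, intervals and the limit a count of 0 allows (3 UMIs of the unit's total over 4 libraries) cover counting error only.

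The genes, lists and comparisons were chosen with earlier results of these data known. Every one of the 40 genes is named with its level in its highest class, each partner list by its 3 genes of the highest mean level (1 of which is not reported here), and age results by call or unadjusted p. The subtype genes described were chosen after their values were seen. The strand used in counting is not given in the sources used here, and 19 of the 40 genes overlap a counted gene on the other strand and 1 (Onecut1) a gene on the same strand, whose reads may not be told apart.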

Additional observations from a re-analysis of the deposited data

Results flagged for a closer look

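For 10 results the age change of a gene differed between 2 cell classes by an edgeR test of the difference itself, run on 12 pairs of classes after the age results had been seen. Values are the difference of the log2 fold changes of 5 over 2.5 months.

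Tshz3, a teashirt factor, changed more in Müller glia than in 5 other classes. The difference was 1.24 against amacrine nuclei (edgeR adjusted p = 1.09e-06), 2.31 against horizontal nuclei (0.000364), 1.25 against ganglion nuclei (0.0143), 1.18 against bipolar nuclei (0.0453) and 1.16 against fibroblasts (0.0295). The share of all genes called in those pairs was 0.478%, 0.464%, 0.112%, 0.0676% and 0.502%. Without the second 2.5-month library all 5 lost their call, with adjusted p from 0.0683 to 0.867, and the difference against fibroblasts also lost it under the other scaling (0.0508).

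Zfhx4 changed more in Müller glia than in horizontal nuclei, by 3.86 (edgeR adjusted p = 0.00109), and than in amacrine nuclei, by 0.93 (0.0452). In horizontal nuclei this rests on 6, 8, 2 and 2 UMIs. Amacrine nuclei read 183, 195, 195 and 162 CPM, and the call against them was lost under 7 of 8 alternatives. Rax differed by 1.62 between Müller and ganglion nuclei (edgeR adjusted p = 0.0274, 0.112% of genes called).

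Meis2 differed by 1.28 between Müller glia and fibroblasts (edgeR adjusted p = 0.0271), with Müller nuclei at 55.7, 61.9, 67.4 and 54.3 CPM. With doublets kept, the difference fell to 0.44 (adjusted p 0.891), and the differences of Zfhx4 against horizontal nuclei and of Rax fell to 0.53 (0.927) and 0.66 (0.400). Each of these 3 calls was lost under 3 of 7 alternatives. The other two were the leaving out of the first or the second 2.5-month library for Meis2 (adjusted p 0.165 and 0.325), of the first 2.5-month or first 5-month library for Zfhx4 (0.136 and 0.123), and of the first 2.5-month or second 5-month library for Rax (0.188 and 0.144).

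Isl1 differed by 0.59 between ganglion and amacrine nuclei (edgeR adjusted p = 0.0347, 0.557% of genes called), a call lost under 5 of 8 alternatives. The starburst-like cluster, which holds most amacrine Isl1, made up 5.82%, 6.41%, 4.29% and 4.32% of amacrine nuclei, and without it the difference was 0.64 with an adjusted p of 0.293.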

How the results depend on the processing

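The 209 class calls stayed between 194 and 214 and the 308 subtype calls between 268 and 314 under every alternative run. The single call by age, Tshz3 in Müller glia, was also made under the other scaling, DESeq2, thinned sums and the replicate block. The count of age calls was 3 with doublets kept, 4 (1 higher, 3 lower) with no filter on low counts, and 1 to 3 with a library left out. Without the second 2.5-month library the 1 call was a lower Zfhx4 in melanocytes, and Tshz3 was not called. Within subtypes the count was 1 with doublets kept and 0 to 3 with a library left out, the 3 being lower Meis1, Pbx3 and Zfhx3 in amacrine clusters without the first 5-month library.

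Donor numbers are shared between ages by number alone, since the mice differ. With the replicate block as a term the age calls were 1 over classes and 0 within subtypes.

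With doublets kept, 5 age changes reversed: Meis2 and Prox1 in fibroblasts to 0.065 and 0.054, Pbx3 and Zfhx4 in horizontal nuclei to 0.23 and 0.49, and Meis1 in melanocytes to 0.12. The cause was not tested. The highest class moved to ganglion for Irx2 with doublets kept, by means over nuclei and without either 2.5-month library, and for Six3 by means over nuclei and without the second 2.5-month library. It moved to fibroblast for Tshz1 without either 2.5-month library, and to horizontal for Cux2 without the first 5-month library.

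With 2 mice per age the spread is poorly known, and horizontal nuclei, pigment epithelium and melanocytes are few. Levels of a few CPM rest on a handful of UMIs.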

Other observations

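Nuclei outside the named classes also carried some of these genes. They fell into clusters named here by a leading gene, chosen after the values were seen. The pigmented clusters led by Mecom (779 nuclei), Myh11 (783) and Slc4a4 (333) held Pax6 at means of 846, 1071 and 1022 CPM and Meis1 at 790.1, 735 and 483. Each of those Pax6 means was above the 739 of Müller glia. In the Myh11 cluster, Tshz3 read 96.3 and 107 CPM at 2.5 months and 168 and 158 at 5 months, and was not tested.

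A cluster of interneurons marked by Ppp1r17 (423 nuclei) held Tshz2 at 711, Pax6 at 525, Prox1 at 314 and Satb1 at 119 CPM. A mixed cluster led by Car3 (34 nuclei) held Zfhx3 at 2620 and Zfhx4 at 1900 CPM. Six3 was at 308 CPM in endothelium (155 nuclei), above the 144 of its highest tested class.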
